A study of Oryza sativa with 12 samples.

Results

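Double fertilisation gives a cereal seed a pair of products, the embryo, from which the seedling grows, and the endosperm, which stores starch and protein. The data described here set the 3 embryo libraries against the 3 endosperm libraries of a series of 12 RNA sequencing libraries from developing rice (Oryza sativa) seed, in which pericarp and aleurone make up the other 6. The members were chosen by tissue label and column header, and every gene of the deposited table entered, 37878 in all. All groups came from field-grown plants without treatment, and each library was made from 10 ng of total RNA isolated with the PicoPure kit and prepared with the NEBNext Ultra kit. The cultivar, the genotype, the seed stage, the number of seeds pooled, the way the tissues were separated and whether embryo and endosperm came from the same seeds were not given in the sources used here. By the design text, the samples within a tissue are biological replicates. Where these were not separate plants, the p-values below measure only the spread between samples. The headers write the endosperm as Se, and it was matched to that tissue because the letters fit no other. Following the numbers in the column headers, embryo 2, 3 and 4 are compared with endosperm 2, 3 and 4.

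The rice embryo holds shoot and root meristems, where class I KNOX and WOX homeobox genes mark and maintain undifferentiated cells, and it later accumulates oil bodies and late embryogenesis proteins that accompany desiccation. The endosperm first forms as a syncytium and then turns into cells packed with starch granules and protein bodies. Its outer layer differentiates as the aleurone, which shares oleosin and late embryogenesis transcripts with the embryo.

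The libraries held between 6367350 and 24412371 counts, with endosperm 3 the smallest. In their sums, the markers counted for starchy endosperm and embryo went with the labels. WAXY, which encodes granule-bound starch synthase, the enzyme of amylose synthesis, lay between 0.656 and 18.02 CPM (the unit of level used here, TMM-scaled counts) in the embryo libraries and between 18905.5 and 59751 CPM in the endosperm libraries. It was the only marker counted for starchy endosperm, so glutelins, prolamins and other starch enzymes were not checked by symbol. The 26 embryo markers summed to 872 to 970 CPM in the embryo libraries and to 0 to 56.8 CPM in the endosperm libraries, where 19 of them were at 0 in every library. Of the 26, 6 were at 0 in every embryo library as well. Most of the 26 are HOX genes. The set holds WOX4 but not WOX5, which had no embryo count and a mean of 59.9 CPM in endosperm. Several of the markers are described again below, which adds no separate support. Aleurone markers, 9 in number, summed to 1893 to 3892 CPM in embryo and to 120 to 468 CPM in endosperm, and 5 of them were at 0 in all endosperm libraries. Markers of the pericarp, 5 in number, summed to 8.66 to 45.2 CPM in embryo and to 0 to 5.06 CPM in endosperm. The part of these other tissues in the results was not tested. In bulk tissue of this kind, fewer cells of a type and less RNA per cell cannot be told apart.

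The embryo libraries spread their counts over many genes and the endosperm libraries concentrated them in few. Embryo 2, 3 and 4 had a count for 16733, 14326 and 16862 genes, and endosperm 2, 3 and 4 for 10048, 6780 and 10490 genes. The groups did not overlap, with means of 15974 ± 1428 genes in embryo and 9106 ± 2026 genes in endosperm (SD, n = 3 each; exact two-sided permutation test, p = 0.1, the smallest that 3 against 3 allows). Thinning every library to the smallest total left 15890 ± 1421 genes in embryo and 8983 ± 1920 genes in endosperm. It could remove few genes, since 15723 ± 1408 in embryo and 8740 ± 2121 in endosperm had at least 10 counts. Thinning evens out counts and not the number of RNA molecules captured, so it cannot show whether that number matters here. In embryo, 858 to 1191 genes held 50% of the counts. In endosperm, 8 to 20 genes did. The 10 most abundant genes took 6.29% ± 1.17 of embryo counts and 48.3% ± 5.44 of endosperm counts (SD, n = 3 each), again without overlap and with an exact p of 0.1. Embryo 2 and endosperm 2 came from another sequencing lane than the other 4 libraries, and both differences had the same direction within each lane.

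**Figure D1:**
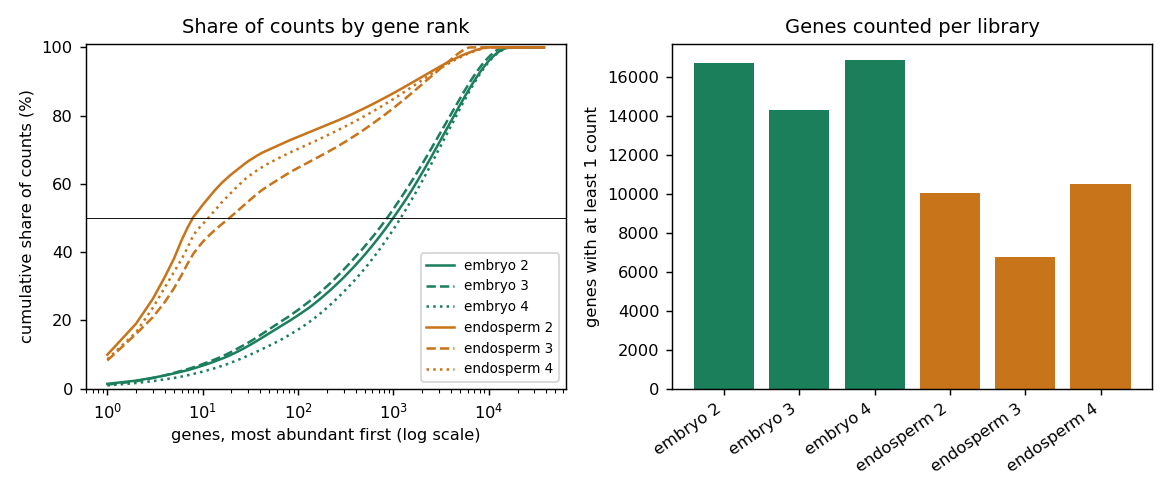
Left, cumulative share of counts (%) against genes ranked from the most abundant on a log axis, 1 line per library, with a thin line at 50%; right, genes with at least 1 count in each library. The endosperm lines reach 50% at 8 to 20 genes and the embryo lines at 858 to 1191 genes, and every embryo bar is higher than every endosperm bar.

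Replicates of endosperm repeated each other less closely than those of embryo. Of the genes with a count in any library of the tissue, 12829 of 19074 (67.3%) were counted in all 3 embryo libraries, and 5021 of 13392 (37.5%) in all 3 endosperm libraries. Spearman correlations across genes, themselves no independent replicates, were 0.817 to 0.883 within embryo, 0.585 to 0.726 within endosperm and 0.289 to 0.378 between the tissues. Endosperm 3 listed 0 for 2285 genes that had at least 50 counts in both other endosperm libraries, and embryo 3 listed 0 for 1399 such genes of embryo. The other 4 libraries did so for 288 to 455 genes. A 0 in 1 library therefore often stood beside high counts in its replicates.

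After the filter on low counts 14477 genes were tested, and 4266 were called. A call needed a 2-fold difference or more and, in edgeR's quasi-likelihood test, an adjusted p (Benjamini-Hochberg) under 0.05. Of the tested genes 3543 (24.5%) were called higher in embryo and 723 (4.99%) higher in endosperm, 29.5% in all. The embryo-high genes were numerous and mostly of low level, with a median of 13.4 CPM in embryo, and 2849 of them (80.4%) had no count in any endosperm library. The endosperm-high genes were fewer and more abundant, with a median of 142 CPM in endosperm, and 206 of them (28.5%) had no count in any embryo library. Endosperm-high genes took 75.4% ± 4.79 of endosperm counts and 2.87% ± 0.073 of embryo counts, while embryo-high genes took 34.1% ± 1.96 of embryo counts and 2.52% ± 0.934 of endosperm counts (SD, n = 3). Since these genes were chosen by their calls, the shares are a description.

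The direction of the calls changed with the CPM of the gene, which is not per length. Among the 3213 genes below 10 CPM in both tissues, 1370 were called higher in embryo and 9 higher in endosperm. Between 10 and 100 CPM in the higher tissue, 1740 of 9283 were called higher in embryo and 279 higher in endosperm. Between 100 and 1000 CPM the counts were close, at 397 and 361 of 1854 genes. At 1000 CPM or more the order turned, and 74 of 127 genes were called higher in endosperm and 36 higher in embryo. As given above, 67.3% of embryo genes but 37.5% of endosperm genes were counted in all 3 libraries of their tissue. Low-level genes thus had less opportunity to pass the filter or be called through endosperm. The part of detection and of the filter in the pattern by level was not tested.

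**Figure D2:**
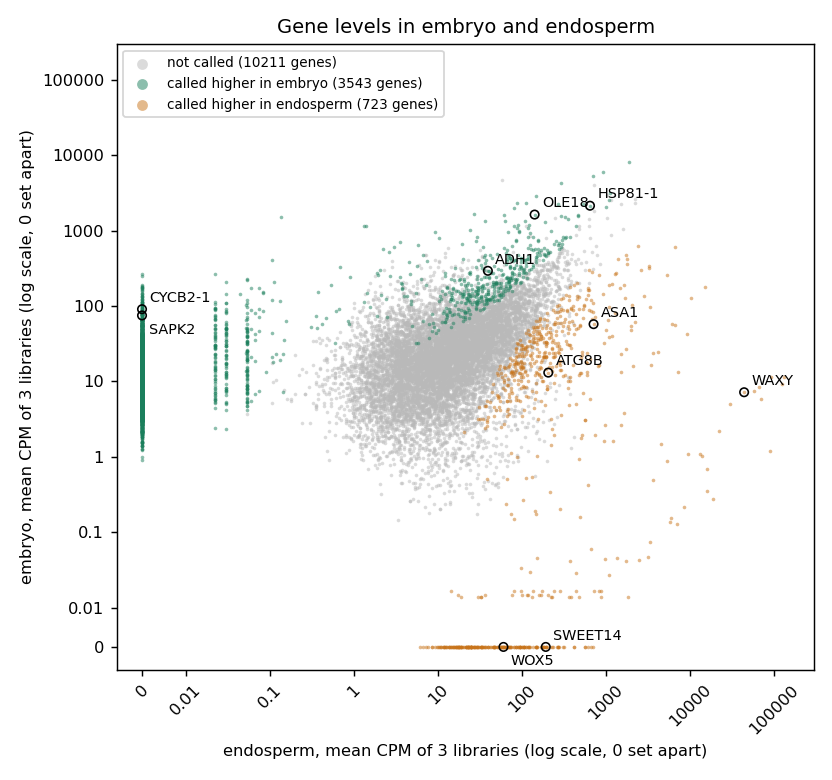
Mean CPM of the 3 embryo libraries (vertical) against mean CPM of the 3 endosperm libraries (horizontal), both on log axes with 0 set apart, 1 point per tested gene, coloured by call, with 10 genes circled and labelled. The 3543 embryo-high genes lie mostly on the left edge, at 0 in endosperm, and the 723 endosperm-high genes reach beyond WAXY, at 43690 CPM in endosperm, at the right.

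Whether a gene was called depended on its zeros, most strongly for genes higher in embryo. Every embryo library lay above every endosperm library for 6499 genes (44.9%), and every endosperm library above every embryo library for 1380 genes (9.53%). Of the 6499, the 2851 without a count in endosperm were called in all but 2 cases. Only 242 of the 1341 genes with a count in 1 endosperm library, 44 of the 1118 with a count in 2, and 408 of the 1189 counted in all 3 were called. ETR4, an ethylene receptor, shows the pattern, with 359, 310 and 371 CPM in embryo and 17.6, 0 and 0 CPM in endosperm. Its log2 difference of 5.88 ± 2.35 (SE) was not called (adjusted p = 0.135), whereas WOX4 at 4.40, 5.92 and 5.21 CPM against 0 in all endosperm libraries was (adjusted p = 0.0148). Of the 1380 genes higher in every endosperm library, the 206 without a count in embryo were all called. Those with a count in 1, 2 or all 3 embryo libraries were called in 44 of 119, 32 of 172 and 440 of 883 cases.

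The calls also rested on particular libraries. Leaving out embryo 2 left 154 calls and leaving out embryo 4 left 138, whereas without embryo 3, endosperm 2, endosperm 3 or endosperm 4 there were 4834, 4086, 4442 and 4216. Without embryo 2 most of the lost genes lay just past the threshold, and at adjusted p below 0.1 that setting gave 3752 embryo-high and 718 endosperm-high genes. Without embryo 4 the corresponding numbers were 3759 and 703. The headers name 2 sequencing lanes, with embryo 2 and endosperm 2 in lane 6 and the other 4 libraries in lane 5. Within lane 5 no gene was called in edgeR, although 5629 genes had an unadjusted p below 0.05 and, at adjusted p below 0.1, 4678 genes were higher in embryo and 665 higher in endosperm. Lane 6 held 1 library of each tissue and allowed no test. With lane as a covariate 304 genes were called, 142 of them higher in embryo. A fit of all 12 libraries of the series called 112 genes (0.685% of 16347 tested), 20 higher in embryo (0.122%) and 92 higher in endosperm (0.563%), all of them among the 4266. Leaving out endosperm 3, the smallest library, gave 3218 embryo-high and 1224 endosperm-high genes. In all, 115 calls held without each library in turn, 22 of them embryo-high and 93 endosperm-high, and none of these genes carried a symbol. Of the 74 endosperm-high genes at 1000 CPM or more, 36 held without each library and 51 were called with all 12.

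**Figure D3:**
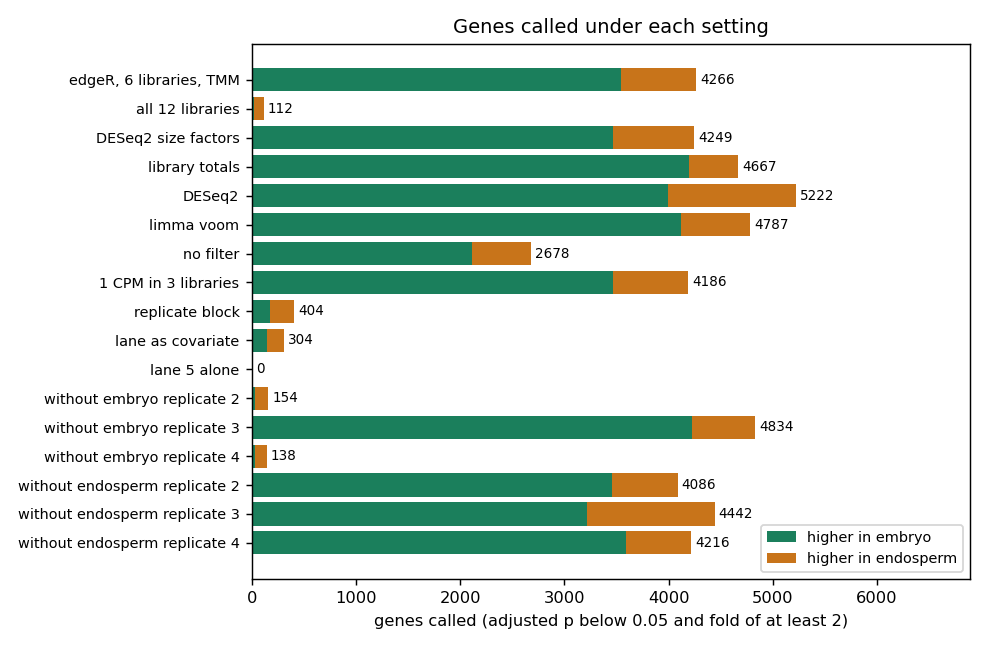
Genes called higher in embryo and in endosperm (horizontal axis, number of genes, stacked) under each way of fitting the data. The edgeR fit of 6 libraries called 4266 genes, and the numbers fall to 154 and 138 without embryo 2 or embryo 4, to 112 with all 12 libraries and to 0 within lane 5 alone.

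Only 265 of the tested genes carried a symbol, and the accounts that follow rest on them. Of the 265, 83 were called higher in embryo and 17 higher in endosperm (37.7% called, beside 29.5% of all genes), and 56 of the 83 were at 0 in every endosperm library. All list members below carry a symbol, so their counts also stand beside the 37.7% called among these 265. A further 52 symbol-bearing genes had every embryo library above every endosperm library without being called, and 15 the reverse. Without embryo 2 none of the 100 calls held, with adjusted p from 0.0549 to 0.134. Without embryo 4 the call of RAB16C alone held (adjusted p = 0.0467), and the other 99 lay between 0.0531 and 0.135. The 12-library fit kept WAXY, OLE18 and SAPK2, and the others had adjusted p of at least 0.12. Log2 differences below are embryo minus endosperm with their SE and stand beside a median of 1.26 over all tested genes. Counts called in each list stand beside 24.5% of all tested genes higher in embryo and 4.99% higher in endosperm. List counts without endosperm 3 stand beside 3218 embryo-high and 1224 endosperm-high genes of 16959 tested in that fit. Where a tissue had no count, the fold sets the mean of the other tissue against a bound. This bound is 3 counts summed over the 3 libraries without a count, 0.0917 CPM in endosperm and 0.0447 CPM in embryo. "At least" therefore refers to counting error alone. It covers neither zeros that stand beside high counts in replicates, as described above, nor single libraries far below their mean.

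The symbol-bearing gene with the highest endosperm level was a starch gene. WAXY, on chromosome 6 from 1931535 to 1935014 in the coordinates of the deposited table (build not given in the sources used here), took 2.84% ± 0.926 of endosperm counts. It was at 2.88, 18.02 and 0.656 CPM in embryo 2, 3 and 4 and at 52414, 18905.5 and 59751 CPM in endosperm 2, 3 and 4. The tissues were far apart, with the lowest endosperm library in endosperm 3 and the highest embryo library in embryo 3. The log2 difference was -12.57 ± 1.80 (adjusted p = 0.0135). In limma's voom fit its adjusted p was 0.951. GT2, which the table describes as a glutelin although rice glycosyltransferases carry the same symbol, was at 36.6, 23.6 and 35.05 CPM in embryo and 37.9, 12.8 and 43.2 CPM in endosperm. These levels overlapped, and the gene was not counted among storage proteins.

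Sugar handling divided between the tissues gene by gene. Of 5 tested genes of sugar transport and cleavage, 1 was called higher in endosperm, 2 higher in embryo and 2 were not called (background 29.5%, median log2 difference 1.93). SWEET14, a sugar efflux transporter on chromosome 11 from 14915289 to 14917489, had no count in embryo and lay at 202, 359 and 11.6 CPM in endosperm. It was at least 4267-fold higher in endosperm (adjusted p = 0.0153), and endosperm 4 was far below the other libraries of its tissue. CIN2, a cell wall invertase that splits sucrose outside the cell, showed the reverse, with 3.37, 29.3 and 32.9 CPM in embryo and no count in endosperm, at least 238-fold higher in embryo (adjusted p = 0.0213). SWEET4, another transporter of the same family, was at 4.72, 7.93 and 4.24 CPM in embryo and at 0 in endosperm (at least 61.5-fold, adjusted p = 0.0148). SUT4, a sucrose transporter, was at 21.4, 22.5 and 35.3 CPM in embryo and at 0, 0 and 20.7 CPM in endosperm and was not called (adjusted p = 0.665). SUT1 had no count in embryo, 0, 1.58 and 8.16 CPM in endosperm, and was not tested. The calls for WAXY, SWEET14, SWEET4 and CIN2 ended without embryo 2 or embryo 4 (adjusted p 0.0531 to 0.0854), and that of CIN2 also without embryo 3 (0.0702).

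Other endosperm-high genes with a symbol came from several pathways. ASA1 and OSK3 here, and COLD1, ERG3 and CHT7 in the next paragraph, were chosen after their values were seen. ATG8B, GT6 and CESA2 entered by the naming rule, which itself uses calls, levels and sizes of change in these data. ASA1, the anthranilate synthase subunit that starts tryptophan synthesis, was at 76.6, 32.6 and 63.4 CPM in embryo and at 904, 619 and 598 CPM in endosperm. The groups lay well apart, a log2 difference of -3.62 ± 0.44 (adjusted p = 0.0107). ATG8B, a ubiquitin-like protein of autophagosome formation, was at 13.7, 14.4 and 11.2 CPM in embryo and at 206, 90.4 and 317 CPM in endosperm, a difference of -3.97 ± 0.58 (adjusted p = 0.0136). It was the only one called of 5 tested genes of autophagy and protein turnover, whose median log2 difference was 0.15, and without endosperm 3, 2 of them were called higher in endosperm. GT6 was at 3.82, 2.66 and 3.94 CPM in embryo and at 77.2, 148 and 70.1 CPM in endosperm (-4.82 ± 0.59, adjusted p = 0.0107). OSK3, a kinase of the SNF1-related family that responds to sugar status, differed less, at 124, 106 and 129 CPM against 304, 427 and 364 CPM (-1.61 ± 0.28, adjusted p = 0.0148). With library totals in place of TMM its adjusted p was 0.284.

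CESA2, a catalytic subunit of cellulose synthase, was at 157, 94.3 and 123 CPM in embryo and at 355, 238 and 268 CPM in endosperm. Its log2 difference was -1.21 ± 0.34 (adjusted p = 0.0404), and -0.20 and not called with library totals (adjusted p = 0.693). It was the only one called of 6 tested cell wall genes. Of these 6, 4 were called higher in endosperm without endosperm 3 (1224 of all 16959 genes in that fit). COLD1, a membrane protein of chilling tolerance, ERG3, a C2 domain protein, and CHT7, a chitinase, were also called higher in endosperm, by log2 differences of -2.92, -2.11 and -9.76. COLD1 and ERG3 were not called with library totals (adjusted p = 0.118 and 0.248) or in limma's voom fit (0.0819 and 0.052). These 4 calls ended without endosperm 2 (adjusted p 0.0617 to 0.0849) or endosperm 4 (0.069 to 0.0936), and those of COLD1, ERG3 and CESA2 without embryo 3 (0.0786 to 0.114). All 8 genes named here and in the preceding account lost their call without embryo 2 or embryo 4 (0.0552 to 0.135).

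The endosperm-high genes of lowest adjusted p that lack a symbol were almost without counts in embryo. BGIOSGA024604, on chromosome 7 from 6463329 to 6463811, was at 0.452, 0.301 and 0.306 CPM in embryo and at 14904, 15493 and 17419 CPM in endosperm. BGIOSGA035383, on chromosome 11 from 16350162 to 16350569, was at 0.123, 0.201 and 0.0875 CPM in embryo and at 7665, 4458 and 5055 CPM in endosperm. Their log2 differences were -15.43 ± 0.42 (adjusted p = 0.000352) and -15.29 ± 0.61 (adjusted p = 0.00165), and both calls held without each library and with all 12, but not in limma's voom fit (adjusted p = 0.188 and 0.441). In embryo the corresponding genes were BGIOSGA021154, with 2359, 1444 and 698 CPM against at most 0.178 CPM in endosperm, and BGIOSGA004381, with 450, 531 and 240 CPM against at most 0.158 CPM. Their log2 differences were 13.45 ± 0.86 (adjusted p = 0.00219) and 11.95 ± 0.67 (adjusted p = 0.00187). Both held without each of the 6 libraries, but not with all 12, where the adjusted p was 0.0863 and 0.121, and BGIOSGA021154 was at 0.29 in limma's voom fit.

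Some endosperm-high genes stood next to each other on the chromosome. Of the 723, 119 (16.5%) had an endosperm-high gene as their nearest tested neighbour on either side, beside 9.22% of the other tested genes. For embryo-high genes the shares were 45.7% and 41.6%. Runs of at least 4 adjacent tested genes called the same way numbered 3 for endosperm and 44 for embryo, the longest holding 5 and 7 genes. An endosperm run on chromosome 7 from 6342458 to 6406472 held 5 genes with mean levels of 3098 to 18775 CPM in endosperm and at most 1.08 CPM in embryo. All 5 were called with all 12 libraries, and 4 held without each of the 6. A run on chromosome 2 from 9401538 to 9436322 held 4 genes, the most abundant at 88551 CPM in endosperm. Of these 4, 3 were called with all 12 libraries and 1 held without each of the 6. The third, on chromosome 11 from 14915289 to 15028513, held SWEET14 and 4 genes without a symbol. None of these 5 was called with all 12 libraries, and 1 held without each of the 6. Neighbouring genes of similar sequence can share reads, and how the authors' counting treated such reads was not given in the sources used here.

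Of 2 tested oil body genes 1 was called, OLE18, higher in embryo. OLE18, an oleosin that coats oil bodies, lies on chromosome 3 from 32134440 to 32134958. It was at 1455, 2155 and 1297 CPM in embryo and at 285, 83.5 and 53.1 CPM in endosperm, 11.6-fold higher in the mean (log2 difference 3.54 ± 0.73, adjusted p = 0.015). The groups did not overlap. PXG, a peroxygenase of the caleosin family that also sits on oil bodies, pointed the other way, with 2.75, 3.92 and 0 CPM in embryo and 250, 32.5 and 164 CPM in endosperm. It was not called (log2 difference -6.06, adjusted p = 0.0594), and without endosperm 3 the list gave 1 call in each direction.

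All 3 tested genes of late embryogenesis proteins and dehydrins were called higher in embryo (24.5% of all genes), and 2 were without endosperm 3. LEA19 was at 1336, 1652 and 506 CPM in embryo and 105, 126 and 8.62 CPM in endosperm (log2 difference 3.86 ± 1.06, adjusted p = 0.0367). RAB16C, a dehydrin, was at 338, 233 and 106 CPM in embryo and at 19.4, 11.2 and 12.1 CPM in endosperm (3.98 ± 0.59, adjusted p = 0.0138). RAB16D, its neighbour on chromosome 11, was at 41.9, 39.1 and 9.28 CPM in embryo and had no count in endosperm (at least 328-fold, adjusted p = 0.0148). Embryo 4 was lowest for all 3, and endosperm 4 was lowest for LEA19. The RAB16 genes are close relatives, and reads they share would be uncertain.

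Among 3 tested lipid transfer protein genes, LTP110-A_2 was called higher in embryo, at 21.5, 25.1 and 27.0 CPM against 0 (at least 267-fold, adjusted p = 0.0148). LTP was not called, at 40.8, 16.2 and 2.80 CPM in embryo and 62.7, 8.24 and 58.5 CPM in endosperm, and the groups overlapped. LTP110-A_1 was not called either. OLE18, LEA19, the LTP genes and GAM1, described below, are also aleurone markers, so the aleurone sums given above contain them. The calls of OLE18, LEA19, RAB16D and LTP110-A_2 ended without embryo 2 or embryo 4, and that of RAB16C without embryo 2 (adjusted p 0.0636 to 0.0871). LEA19 also lost its call without embryo 3 (0.0953), endosperm 2 (0.0844) and endosperm 3 (0.0697). In limma's voom fit the adjusted p of OLE18, LEA19 and RAB16C was 0.398, 0.62 and 0.373.

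**Figure D4:**
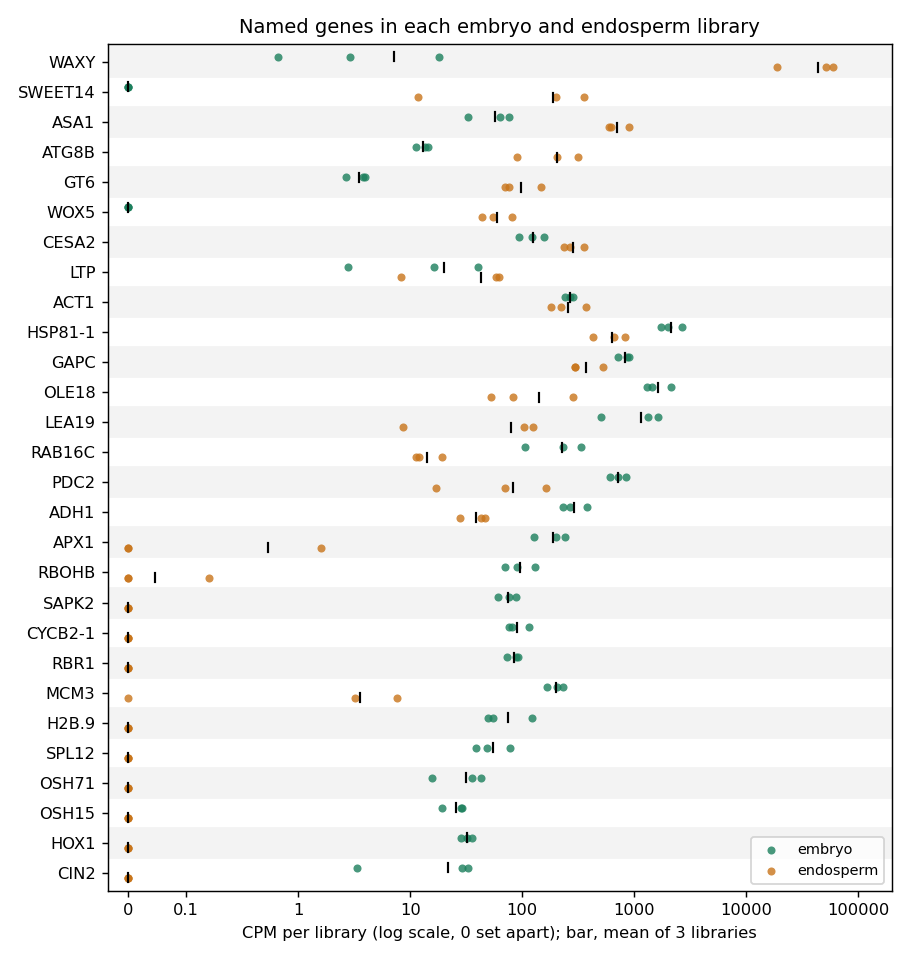
CPM of 28 genes in each of the 3 embryo and 3 endosperm libraries on a log axis with 0 set apart; points are libraries and bars the means of 3. WAXY at the top lies between 18905.5 and 59751 CPM in endosperm, ACT1 overlaps between the tissues, and the genes from SAPK2 downward other than MCM3 have no endosperm count.

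All 4 tested KNOX and WOX homeobox genes were called, 3 higher in embryo and WOX5 higher in endosperm (24.5% and 4.99% of all genes). OSH71 was at 43.4, 15.8 and 36.0 CPM and OSH15 at 19.4, 28.9 and 28.5 CPM in embryo, and neither had a count in endosperm. These class I KNOX genes, which keep meristem cells undifferentiated, reached at least 346 and 279 times their endosperm bound (adjusted p = 0.0148 for each). WOX4, described above, was at least 56.5-fold higher. WOX5 had no count in embryo and lay at 44.1, 81.1 and 54.5 CPM in endosperm, at least 1339-fold higher there (adjusted p = 0.0127). Its 3 endosperm libraries lay within a factor of 2 of each other. A further 5 WOX genes of the table were not tested, and of these WOX2, WOX3 and WOX10 had no count in either tissue.

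HD-Zip homeobox genes are plant transcription factors with a leucine zipper. Of 10 tested, 5 were called higher in embryo (24.5% of all genes), 3 without endosperm 3, and none was called higher in endosperm in either fit. HOX1 was at 32.5, 28.7 and 35.6 CPM and HOX20 at 18.1, 24.1 and 10.2 CPM in embryo, both without a count in endosperm (at least 352-fold and 191-fold, adjusted p = 0.0148). The most abundant, HOX33, was not called, at 244, 217 and 263 CPM in embryo and 32.3, 0 and 24.6 CPM in endosperm (log2 difference 3.67 ± 1.62, adjusted p = 0.176), although the groups did not overlap. HOX32 gave a similar picture, at 192, 182 and 209 CPM against 0.0892, 0 and 16.6 CPM (adjusted p = 0.148). The calls of the 9 homeobox genes ended without embryo 2 or embryo 4 (0.0549 to 0.0644). Those of HOX7, HOX11 and HOX13, all below 10 CPM in the mean, also ended without endosperm 2 (0.0555 to 0.0986), endosperm 3 (0.0545 to 0.101) or endosperm 4 (0.0523 to 0.0781).

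Of 9 tested cell cycle genes 3 were called, all higher in embryo, a share near the 29.5% of all genes, and the median log2 difference of the 9 was 0.45. Without endosperm 3, 3 were called higher in embryo and 1 higher in endosperm. CYCB2-1, a cyclin of mitosis, was at 75.8, 80.7 and 116 CPM in embryo without an endosperm count, at least 991-fold higher (adjusted p = 0.01). RBR1, a retinoblastoma-related brake on entry into S phase, was at 91.1, 88.7 and 73.6 CPM against 0 (at least 922-fold, adjusted p = 0.00972). NEK2, a NIMA-related kinase, was at 78.9, 41.3 and 78.7 CPM against 0 (at least 723-fold, adjusted p = 0.0132). CDKG-2 was the most abundant of the list and was not called, at 63.5, 78.5 and 76.8 CPM in embryo and 131, 72.4 and 131 CPM in endosperm.

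Of 9 tested genes of DNA replication and repair 5 were called, all higher in embryo (24.5% of all genes). The median log2 difference of the 9 was 5.78. Without endosperm 3, 7 were called higher in embryo. MCM3, MCM6 and MCM7 encode subunits of the replicative helicase. MCM3 was at 231, 203 and 165 CPM in embryo and at 7.58, 0 and 3.22 CPM in endosperm (log2 difference 5.78 ± 1.51, adjusted p = 0.0313). MCM6 was at 35.5, 19.4 and 89.9 CPM and MCM7 at 20.3, 68.3 and 48.5 CPM in embryo, both without an endosperm count (adjusted p = 0.0148). MCM9 and TOP6B were called as well.

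Of 10 tested histone H2B genes 2 were called, both higher in embryo, a share below the 24.5% of all genes. Without endosperm 3, 3 were called. H2B.9 was at 50.1, 54.8 and 122 CPM against 0 (adjusted p = 0.0135) and H2B.2 at 149, 169 and 199 CPM against 5.17, 0 and 6.05 CPM (5.51 ± 1.48, adjusted p = 0.0345). H2B.6 was the most abundant, at 173, 210 and 171 CPM against 0.268, 0 and 19.7 CPM, and was not called (adjusted p = 0.156) although its groups did not overlap. H2B copies can be alike in sequence, which was not compared here, so the split of reads among them is uncertain. The 10 calls on division, replication and histones ended without embryo 2 or embryo 4 (0.0636 to 0.0996). MCM3 and H2B.2 also lost theirs without embryo 3 (0.0796 and 0.0851), endosperm 2 (0.0563 and 0.105) and endosperm 4 (0.122 and 0.0965).

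SAPK2, a kinase of abscisic acid signalling on chromosome 7 from 23774031 to 23777811, was at 88.6, 60.7 and 75.7 CPM in embryo and had no count in endosperm. It was at least 818-fold higher in embryo (adjusted p = 0.011, and 0.0482 with all 12 libraries). Its relative SAPK3 overlapped between the tissues, at 47.5, 78.6 and 45.4 CPM and 40.1, 55.0 and 7.89 CPM. GAM1, the MYB factor that acts on gibberellin targets, was called higher in embryo at 1.85, 7.43 and 5.64 CPM against 0 (at least 54.3-fold, adjusted p = 0.0149), while SLR1, the DELLA repressor of gibberellin response, overlapped between the tissues and was not called (adjusted p = 0.896).

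In the auxin list 4 of 9 tested genes were called higher in embryo and 1 higher in endosperm (24.5% and 4.99% of all genes). ARF17 was at 222, 116 and 163 CPM in embryo and 6.601, 16.5 and 22.5 CPM in endosperm (3.46 ± 0.61, adjusted p = 0.0148). ARF23 was at 305, 276 and 250 CPM against 33.4, 16.5 and 78.0 CPM (2.70 ± 0.62, adjusted p = 0.0198). Both are auxin response factors, as is ARF10, which was called at a lower level, and IAA13 of the Aux/IAA repressors was at 8.83, 7.73 and 18.6 CPM against 0 (adjusted p = 0.0151). DAO, a dioxygenase that inactivates auxin by oxidation, went the other way, at 5.18, 1.51 and 0.438 CPM in embryo and 40.9, 23.3 and 43.2 CPM in endosperm. Its log2 difference was -3.91 ± 1.16 (adjusted p = 0.0498). With library totals its adjusted p was 0.109 and with a filter of 1 CPM in 3 libraries 0.0506, so the call did not hold in either.

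Among 15 tested genes of jasmonate, ethylene, cytokinin and brassinosteroid, 3 were called, all higher in embryo, a share below the 24.5% of all genes. The median difference was 0.65. RR23, a response regulator, was at 50.4, 63.4 and 51.3 CPM against 0 (at least 600-fold, adjusted p = 0.0131). AOC, the allene oxide cyclase of jasmonate synthesis, was at 12.9, 32.6 and 18.7 CPM against 0, and TIFY6A, of the family that represses jasmonate response, at 19.0, 20.4 and 15.1 CPM against 0 (adjusted p = 0.0148 for each). The 10 hormone calls ended without embryo 2 or embryo 4 (0.0636 to 0.103). DAO and ARF23 also lost theirs without embryo 3 (0.144 and 0.0527) or endosperm 2 (0.0796 and 0.11), DAO without endosperm 4 (0.0798), and GAM1 without endosperm 2, 3 or 4 (0.0611, 0.0598 and 0.0581). In limma's voom fit the adjusted p of ARF17 was 0.141.

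Of 12 tested transcription factors of other families, 5 were called higher in embryo, none higher in endosperm (24.5% and 4.99% of all genes), and the median log2 difference was 0.33. Without endosperm 3, 1 was called higher in endosperm and 5 higher in embryo. SPL12 was at 78.8, 39.0 and 48.5 CPM and SPL3 at 40.7, 31.5 and 60.7 CPM in embryo, both SBP-box factors without a count in endosperm (at least 605-fold and 484-fold, adjusted p = 0.0137 and 0.0148). SPL15 of the same family was higher in each endosperm library, at 318, 123 and 344 CPM against 108, 71.5 and 83.3 CPM, and missed the threshold (log2 difference -1.58 ± 0.48, adjusted p = 0.0536). MYBS2, a MYB factor of the sugar response of amylase genes, was at 27.5, 9.94 and 12.4 CPM against 0 (adjusted p = 0.0151). PCF5, a TCP factor, and SHR1, of the SHORT-ROOT family that patterns root tissues, were called below 10 CPM. These 5 calls ended without embryo 2 or embryo 4 (0.0636 to 0.0652) and held without each of the other 4 libraries. Neither tested gene of chromatin and small RNA, SRT1 and UBP26, was called in edgeR, DESeq2 or voom, and 0 had an unadjusted p below 0.05 in edgeR. UBP26, a ubiquitin protease, was at 55.2, 122 and 106 CPM in embryo and at 49.3, 0 and 28.9 CPM in endosperm (adjusted p = 0.535).

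All 4 tested members of the fermentation and glycolysis list were called higher in embryo (24.5% of all genes). Each had counts in every library of both tissues. ADH1, alcohol dehydrogenase, was at 266, 380 and 234 CPM in embryo and 46.6, 28.0 and 42.6 CPM in endosperm (2.91 ± 0.39, adjusted p = 0.0124). PDC2, the pyruvate decarboxylase of the preceding step, was at 727, 840 and 608 CPM against 162, 17.1 and 71.1 CPM (3.12 ± 0.81, adjusted p = 0.0298). ADHIII was at 171, 203 and 216 CPM against 10.9, 61.8 and 43.1 CPM (2.35 ± 0.66, adjusted p = 0.0416). It entered the list by its symbol alone, and a part in fermentation was not checked. GAPC, the cytosolic glyceraldehyde phosphate dehydrogenase, was at 894, 863 and 725 CPM against 296, 530 and 295 CPM. Its difference of 1.15 ± 0.33 (adjusted p = 0.0452) was below the median of all genes by 0.11 on the log2 scale.

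In the redox list 2 of 6 tested genes were called, both higher in embryo, a share near the 29.5% of all genes. Without endosperm 3, 2 were called higher in embryo and 1 higher in endosperm. APX1, ascorbate peroxidase, was at 127, 241 and 203 CPM in embryo and 1.61, 0 and 0 CPM in endosperm (8.41 ± 1.90, adjusted p = 0.0184). RBOHB, an NADPH oxidase, was at 91.0, 69.8 and 130 CPM against 0, 0.158 and 0 CPM (11.11 ± 1.43, adjusted p = 0.0115). MT2C, a metallothionein and the most abundant of the list, was at 396, 584 and 445 CPM in embryo and 403, 100 and 47.0 CPM in endosperm, and it was not called. The 6 calls of both lists ended without embryo 2 or embryo 4 (0.0636 to 0.134). PDC2, ADHIII, GAPC and APX1 also lost theirs without embryo 3 (0.0566 to 0.105), PDC2, ADHIII and GAPC without endosperm 4 (0.0922 to 0.144), and GAPC without endosperm 2 (0.137). In limma's voom fit the adjusted p of ADH1 and PDC2 was 0.0637 and 0.0727, and with DESeq2 size factors in edgeR that of ADHIII and GAPC was 0.0548 and 0.092.

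Of 10 tested ribosome and translation genes 1 was called, RPS16B_1, higher in embryo (24.5% of all genes). RPS16B_1 was at 218, 223 and 235 CPM in embryo and 64.6, 81.6 and 59.3 CPM in endosperm (1.72 ± 0.30, adjusted p = 0.0148). RPS16B_2, a gene of the same name, was not called (log2 difference 1.04, adjusted p = 0.332). Their sequences were not compared, so the split of any shared reads is uncertain. The median of the 10 was 0.55, beside 1.26 for all genes. RPL5A was at 288, 244 and 230 CPM and 131, 267 and 137 CPM, with overlapping groups (adjusted p = 0.444). ACT1, actin, was at 243, 266 and 287 CPM and 223, 180 and 370 CPM (0.04 ± 0.35, adjusted p = 0.957). HSP81-1, a chaperone of the HSP90 family, was at 2019, 2674 and 1738 CPM in embryo and 431, 832 and 660 CPM in endosperm (1.74 ± 0.34, adjusted p = 0.0148, and 0.365 in limma's voom fit). Of the cytoskeleton list 1 of 3 was called (2 without endosperm 3), the formin FH2, at 30.9, 11.9 and 18.6 CPM against 0 (adjusted p = 0.0148).

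Of 5 tested chloroplast genes TROL, LTD and EGY2 were called higher in embryo (24.5% of all genes). Each lay below 10 CPM and had no count in endosperm. CHLI, a subunit of magnesium chelatase, was not called (adjusted p = 0.814). Without endosperm 3, 2 of the 5 were called. Of 4 tested flavonoid and phytate genes CHS1, chalcone synthase, was called higher in embryo, at 39.5, 15.9 and 1.93 CPM against 0, 0.158 and 0 CPM (8.59 ± 2.31, adjusted p = 0.0346). CHI, the isomerase of the next step, was at 118, 138 and 77.1 CPM against 0, 25.8 and 0 CPM and was not called (adjusted p = 0.379). IPK1, a kinase of phytate synthesis, was at 119, 90.9 and 129 CPM in embryo and 170, 318 and 219 CPM in endosperm, without overlap and without a call (-1.06 ± 0.36, adjusted p = 0.0811). Without endosperm 3, 2 genes of the flavonoid and phytate list were called higher in embryo and 1 higher in endosperm. TROL, LTD and CHS1 are also pericarp markers, so the pericarp sums given above contain them. The calls of HSP81-1, RPS16B_1, FH2, TROL, LTD, EGY2 and CHS1 ended without embryo 2 or embryo 4 (0.0636 to 0.11). TROL also lost its call without endosperm 2, 3 or 4 (0.105, 0.101 and 0.1), and CHS1 without embryo 3 (0.078), endosperm 2 (0.0738) or endosperm 4 (0.0701). The mineral and water transport list, with ZIP4 and PHT1-4, had no tested member.

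**Figure D5:**
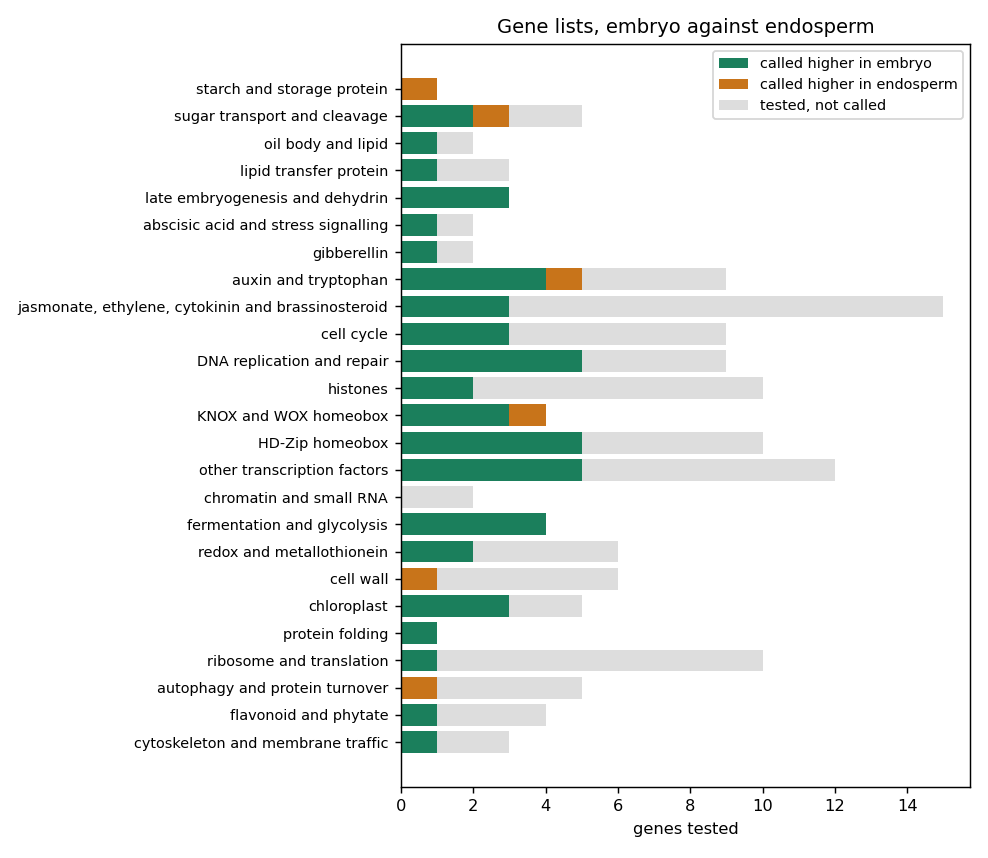
Tested genes of each list (horizontal axis, number of genes) split into those called higher in embryo, called higher in endosperm and not called. Embryo-high calls make up all 4 tested members of the fermentation and glycolysis list and 5 of 9 replication genes. Endosperm-high calls appear singly, in 6 lists.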

How the data were processed

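RNA was sequenced from 12 libraries of developing rice seed on the HiSeq2500, and the 6 embryo and endosperm libraries were compared here. The authors deposited a table with total read counts per gene and library, which were whole numbers and not normalized, per the file headers. The aligner, the counting of shared reads, the use of strand and the genome build were not given in the sources used here. A further 36 columns of per-sample values were not used. Of the table's genes 412 had a symbol and 24 a description, and a RefSeq gene table matched 0 of the identifiers.

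The test was edgeR 4.0.16 under R 4.3.3 (filterByExpr with a minimum count of 10, TMM factors, glmQLFit and glmQLFTest, two-sided). The common dispersion came to 1.75 (biological coefficient of variation 1.32). All adjusted p-values are Benjamini-Hochberg values over all genes tested, and those without a named tool come from this test. SE is the absolute log2 difference over the square root of F. CPM is the count scaled to a common library size with TMM factors. A floor of 3 counts covers counting error alone, because PCR copies cannot be told from separate molecules here. Alternatives used DESeq2 1.42.0 and limma 3.58.1, other scalings and filters, a block, the lane, all 12 libraries and each library left out. The edgeR fit was tested on simulated counts drawn separately for each gene and library. The simulation did not model zeros concentrated in single libraries, as in endosperm 3 and embryo 3, so it does not cover their effect on the calls.

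The gene lists, 26 with 228 members of which 141 were tested, and the use of 6 libraries rather than 12 were chosen with earlier results of these data known. A list is described by its counts and median and was given no test. Named genes are, per list, up to 3 called members of at least 10 CPM with the lowest adjusted p and the most abundant member, then the 8 largest changes per direction, genes called by the fits of both 6 and 12 libraries, and 2 identifiers per direction of at least 50 CPM. Other named genes were chosen after their values were seen.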

Additional observations from a re-analysis of the deposited data

How the results depend on the processing

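The number of called genes depended strongly on the fit, and the cause was not tested. Beside 4266 calls (3543 embryo-high, 723 endosperm-high), the fit of all 12 libraries gave 112 (20 and 92), no filter on low counts 2678 (2107 and 571), lane as a covariate 304 (142 and 162) and lane 5 alone 0 (0 and 0) in edgeR, with 5629 genes at an unadjusted p below 0.05. Library totals gave 466 endosperm-high genes and DESeq2 1232, with 4201 and 3990 embryo-high genes, 90.0% and 76.4% of their calls beside 83.1%. DESeq2 size factors (4249 calls), voom (4787) and a filter of 1 CPM in 3 libraries (4186) stayed within 1.5 times. The median log2 difference of all genes moved from 1.26 by 1.07 with library totals, by 2.20 with voom and by -0.14 with DESeq2 size factors.

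With the header number as a replicate block 404 genes were called (173 and 231). Deviations of same-numbered libraries from their tissue means correlated at 0.017, 0.055 and 0.0351. Those of libraries with different numbers correlated at -0.0468 to 0.0277. Whether the numbers pair the libraries was not settled.

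Leaving out 1 library gave 138 to 4834 calls, 29 to 4229 embryo-high and 109 to 1224 endosperm-high, the low ends without embryo 4 and the high ends without embryo 3, embryo 3 and endosperm 3. Genes counted per library and the share of the 10 most abundant genes do not depend on the fit. Their groups did not overlap, so leaving out 1 library could not change their direction.

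No called symbol-bearing gene changed direction. Of those not called, log2 differences turned for LTP (0.041), CDKG-2 (0.44) and CHLI (0.44) with library totals, and for CHLI with voom (0.017). ACT1 turned with all 12 libraries (-0.22), DESeq2 size factors (-0.0889), DESeq2 (-0.0894) and voom (-0.0842). Over the fits without 1 library SLR1 ranged from -0.35 to 2.13 and ACT1 from -0.44 to 0.22, the lowest without endosperm 3 and the highest without endosperm 4.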

Other observations

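Some families that the report does not cover were drawn up after the results were seen, so their counts are descriptions. Calmodulins, the calcium sensors, were called higher in embryo for 3 of 5 tested genes (24.5% of all genes). CAM2 was at 378, 378 and 414 CPM in embryo and 78.5, 83.1 and 74.7 CPM in endosperm, a log2 difference of 2.31 ± 0.26 (adjusted p = 0.0091). CAM1-1_1 and CAM1-1_2 were called the same way (2.81 and 3.13), the latter not in limma's voom fit (adjusted p = 0.114), whereas CAM1-1_3 was at 4.40, 17.7 and 29.4 CPM in embryo and 76.6, 97.4 and 81.4 CPM in endosperm and was not called (-2.31, adjusted p = 0.0719). Such copies can be alike in sequence, which was not compared here, so the division of their reads is uncertain.

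Inositol phosphate kinases, which lead to phytate, the phosphate store of the seed, were called in both directions. Of 7 tested, 1 was higher in embryo and 2 higher in endosperm (24.5% and 4.99% of all genes). Without endosperm 3, 3 were higher in endosperm. ITPK3 was at 36.4, 22.2 and 39.0 CPM in embryo and 181, 186 and 229 CPM in endosperm (-2.61 ± 0.38, adjusted p = 0.0137). ITPK1 was at 5.88, 14.1 and 12.5 CPM against 68.6, 82.2 and 53.9 CPM (-2.66 ± 0.59, adjusted p = 0.0175, and 0.127 with library totals). ITPK2 had 40.3, 26.7 and 27.3 CPM in embryo and no count in endosperm, at least 343-fold higher (adjusted p = 0.0148). The zinc finger homeodomain genes ZHD2, ZHD6 and ZHD11 were called higher in embryo, none with an endosperm count. The mini zinc finger genes MIF1 and MIF2 were called higher in endosperm, at 19.8, 6.97 and 28.7 CPM and 13.5, 4.75 and 39.7 CPM, with no embryo count.

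PRMT10 and PRMT6.1, protein arginine methyltransferases, were called higher in embryo with no endosperm count, 2 of 5 tested (24.5% of all genes). MRS2-I, a magnesium transporter, was at 18.04, 13.7 and 34.1 CPM in embryo and 97.5, 104 and 99.0 CPM in endosperm (-2.19 ± 0.51, adjusted p = 0.0197), 1 called of 4 tested. With library totals its log2 difference was -1.23 and it was not called (adjusted p = 0.193). Of 6 tested phosphate sensing genes 0 were called in the edgeR fit of 6 libraries (0 at an unadjusted p below 0.05) and in voom. In each of DESeq2 and the fit without endosperm 3, 1 was called, higher in endosperm. All 14 calls of these families ended without embryo 2 or embryo 4 (adjusted p 0.061 to 0.0847), those of ZHD2, ZHD11 and MRS2-I without embryo 3 (0.0511 to 0.0526), and that of ZHD11 without endosperm 2, 3 or 4 (0.0711, 0.068 and 0.0685).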
